A study of Hordeum vulgare with 12 samples.

Results

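The genes described here are 4 genes of auxin transport in barley crowns: 3 are described in the deposited annotation as auxin efflux carrier components and 1 as an auxin canalization protein with the domain DUF828. They are 4 of the 63658 genes of the deposited table, and they were chosen by name, with their measured counts in all 12 libraries already in view. Their levels and differences are therefore given as a description, and no test is given for them.

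Auxin efflux carriers of the PIN type are membrane proteins that move auxin out of the cytoplasm. In Arabidopsis the long PIN proteins sit on one face of the cell and so set the direction in which auxin flows, whereas the short ones, such as PIN5 and PIN8, lie largely at the endoplasmic reticulum. Canalization is the process by which a flow of auxin strengthens its own path and narrows into files of cells, as is known for leaf veins, and Arabidopsis proteins with the DUF828 domain include FORKED1, known from work on vein pattern.

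The crowns came from the cultivar Golden Promise in a system in which the roots that grow from the shoot base are held back and then induced with auxin. Seedlings grew on NPA at 50 µM, which blocks polar transport of auxin, and were then given 50 µM of 1-NAA, an auxin analog made by synthesis. Crowns, pieces of 2 mm where the roots meet the stem, were cut on NPA at 0 h and on 1-NAA after 30 min, 1 h and 3 h, with 3 libraries at each time and 5 pooled crowns in each library. The sample titles name the tissue as stem and the other labels as crown. No crowns kept on NPA were sampled at the later times, so the effects of auxin, of NPA withdrawal, of a fresh solution and of the hour of sampling cannot be told apart. The 3 comparisons with 0 h share the same 0 h libraries. In whole crowns, a lower or higher level can mean a different number of cells of one type or a different amount of RNA per cell, and these cannot be told apart.

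Between 16093892 and 34019480 read counts per library were assigned to genes. The share of reads assigned was 66.4% in replicate 1 of 0 h, 64.8% in replicate 1 of 30 min and 56% in replicate 1 of 3 h, against 71.9 to 78.4% in the other libraries. All 4 genes had enough reads to enter the fit of 24920 genes. Levels are given in CPM, counts scaled to the assigned reads of each library and by TMM, as mean ± SD of 3 libraries, and differences between times as log2 differences ± SE from edgeR's fit of all 12 libraries. Levels are compared between genes only as CPM per kb of coding length.

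The first carrier gene, HORVU.MOREX.r2.3HG0236360.1, lies on the minus strand of chromosome 3H from 467840782 to 467842702, and its coding length is 1074 bases, or 358 codons. The first homolog that the authors' deposited table lists for it, in Arabidopsis and in rice alike, is described as auxin efflux carrier component 8, a short PIN in Arabidopsis. In replicates 1 to 3 the 0 h libraries held 55, 73 and 104 counts of it, the 30 min libraries 56, 78 and 85 and the 1 h libraries 71, 120 and 144. At 3 h they were 409, 442 and 385. All 3 libraries of 3 h stood far above the other 9, and the earlier times overlapped with one another.

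In CPM the level of this 3H carrier was 3.09 ± 0.401 before the change of solution, 3.22 ± 0.104 after 30 min and 4.19 ± 0.805 after 1 h. The mean of the 3 h libraries was 17.5 CPM, and they ran from 15.9 to 18.8 CPM. The log2 difference from 0 h was 0.07 ± 0.186 at 30 min and 0.45 ± 0.184 at 1 h. At 3 h it was 2.51 ± 0.188, a 5.70-fold higher level, of which 2.06 ± 0.184 lay between 1 h and 3 h. The high level was thus a feature of the last time alone among the 4 that were sampled.

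The second carrier gene, HORVU.MOREX.r2.4HG0297660.1, lies on the minus strand of chromosome 4H from 153676133 to 153679117. No rice homolog is listed for it. Its coding length of 2292 bases, or 764 codons, is the longest among the 31 genes described as auxin efflux carriers. The libraries of 0 h held 448, 1098 and 888 counts of it, those of 30 min 449, 690 and 674 and those of 1 h 755, 913 and 1011. They were 2056, 3147 and 3402 at 3 h.

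The level of the 4H carrier was 31.9 ± 8.76 CPM at 0 h, where replicate 2 stood highest at 41.8 CPM and replicate 3 lowest at 25.1 CPM. It was 26.6 ± 2.33 CPM at 30 min and 34.3 ± 0.854 CPM at 1 h. These 2 times overlapped with 0 h, with log2 differences of -0.26 ± 0.194 and 0.10 ± 0.193. At 3 h the level was 121 ± 23.6 CPM, with replicate 1 lowest at 94.6 CPM, above every earlier library. The log2 difference from 0 h was 1.92 ± 0.199, or 3.79-fold, and that from 1 h was 1.82 ± 0.198.

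The third carrier gene, HORVU.MOREX.r2.5HG0409300.1, lies on the minus strand of chromosome 5H from 494816455 to 494820882 and has 356 codons in a coding length of 1068 bases. Only maize homologs are listed for it, and the second of them is also the second maize homolog of the 3H carrier. The counts were 125, 294 and 395 in the 0 h libraries, 110, 182 and 120 in those of 30 min, 126, 186 and 220 in those of 1 h, and 127, 392 and 175 in those of 3 h. In CPM, which takes out the depth, the libraries of 0 h stood at 8.05, 11.2 and 11.2, those of 30 min at 6.10, 7.72 and 4.58 and those of 1 h at 5.86, 6.81 and 7.45. Every library of 30 min and 1 h lay below every library of 0 h. The summed level of 35 chlorophyll a-b binding genes, markers of green tissue, was also lower at 30 min, at 3373 to 4017 CPM against 4103 to 5249 at 0 h, and its part in the result was not tested. At 1 h that sum, 3316 to 4379 CPM, overlapped with 0 h.

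The mean level of the 5H carrier went from 10.1 ± 1.81 CPM at 0 h to 6.13 ± 1.57 at 30 min and 6.71 ± 0.798 at 1 h. The log2 differences were -0.73 ± 0.340 and -0.60 ± 0.338, about 2 standard errors each. At 3 h the libraries split: replicate 2 was at 15.9 CPM, the highest of all 12, and replicates 1 and 3 were at 5.84 and 7.22 CPM. The mean of 9.65 ± 5.45 CPM and the log2 difference of -0.07 ± 0.336 from 0 h rest on that 1 library, since without it the difference was -0.64. The 5H carrier therefore had no level at 3 h that its libraries shared.

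The canalization gene, HORVU.MOREX.r2.4HG0346860.1, lies on the plus strand of chromosome 4H from 618562726 to 618564688, with a coding length of 1227 bases or 409 codons. Its Arabidopsis homologs are listed as At4g17350 and At5g47440, both without a described role in the table. The 0 h libraries held 3, 4 and 5 counts, the 30 min libraries 7, 6 and 1 and the 1 h libraries 17, 8 and 7. The 3 h libraries held 271, 264 and 278 counts. The gene was near the limit of detection in the first 9 libraries, where 3 counts amount to 0.0849 to 0.193 CPM, and was plainly present in the last 3.

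Its level was 0.162 ± 0.0272 CPM at the start, 0.227 ± 0.177 after 30 min, 0.440 ± 0.305 after 1 h and 11.5 ± 0.884 after 3 h. From counts summed over 3 libraries and scaled for depth, the ratio to 0 h was 74.0 at 3 h, with a 95% interval of 42.1 to 144 that covers counting error only. The ratio was 1.33 (0.570 to 3.14) at 30 min and 2.63 (1.32 to 5.60) at 1 h. The fitted log2 difference was 6.15 ± 0.575 at 3 h and 1.41 ± 0.618 at 1 h, and replicate 1 of 1 h, with 17 counts, carried much of the latter, which was 0.73 without it. Most of the increase lay between 1 h and 3 h, with a log2 difference of 4.74 ± 0.512.

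**Figure D1:**
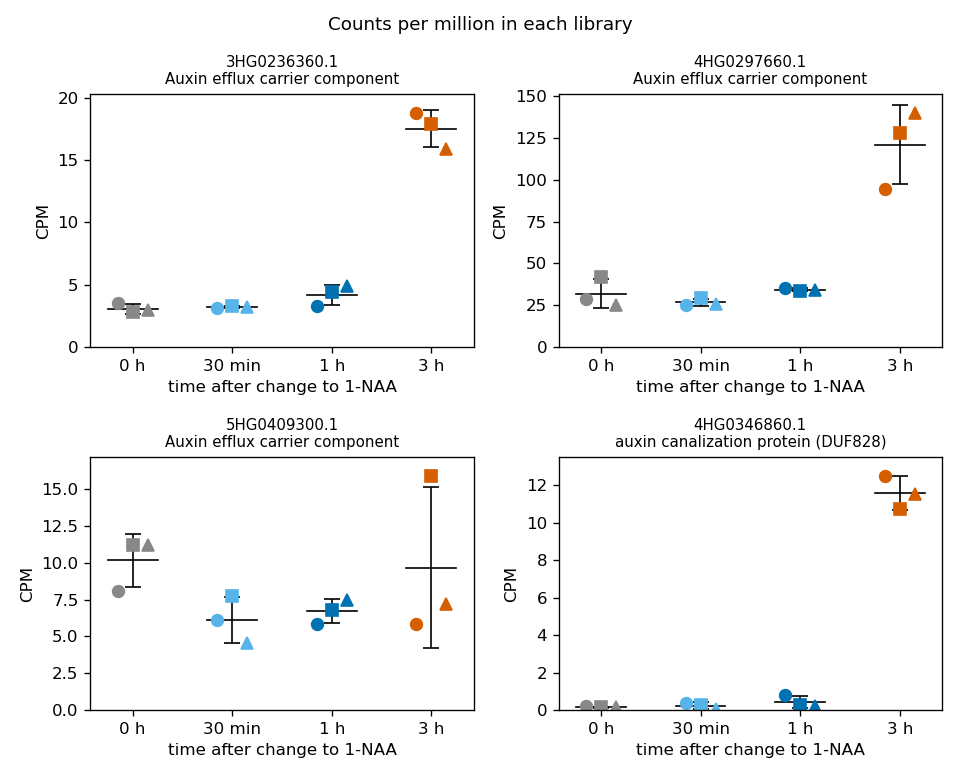
CPM of the 4 genes in each library against the time after the change to 1-NAA, with circles, squares and triangles for replicates 1, 2 and 3, a horizontal line for the mean and bars for the SD. The 3H carrier, the 4H carrier and the canalization gene have all 3 libraries of 3 h above the other 9, and the 5H carrier has 1 high library at 3 h, at 15.9 CPM.

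At 30 min, 1 of the 4 genes, the 5H carrier, had libraries that did not overlap with 0 h, on the lower side. For comparison, the quasi-likelihood test of edgeR, adjusted by Benjamini and Hochberg's method, called 0.00401% of all 24920 tested genes higher and 0% lower there at an adjusted p under 0.05, while 1095 genes (4.39%) had an unadjusted p under 0.05. Libraries that did not overlap are a looser measure, met there by 4.68% of all tested genes on the higher side and 2.94% on the lower. At 1 h, 2 of the 4 did not overlap, the 5H carrier on the lower side and the canalization gene on the higher, where 0.0963% of all tested genes were called higher and 0% lower, with 1432 genes (5.75%) at an unadjusted p under 0.05, and 7.16% did not overlap on the higher side and 6.40% on the lower. At 3 h, 3 of the 4 stood apart on the higher side, where 1.68% of all tested genes were called higher and 0.799% lower, with 2596 (10.4%) at an unadjusted p under 0.05, and 6.66% did not overlap on the higher side and 6.63% on the lower. Over the 4 times 2.30% were called. Since the 4 genes were selected on these values, nothing is read from their counts against these shares.

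Taken step by step, the 3 genes that were high at 3 h had small steps at first. From 30 min to 1 h the log2 step was 0.38 ± 0.184 for the 3H carrier, 0.36 ± 0.194 for the 4H carrier and 0.98 ± 0.601 for the canalization gene. Of these 3, only the 4H carrier had libraries that did not overlap between 30 min and 1 h. The share of all tested genes without overlap was not computed for that step, so nothing is read from it. The 5H carrier had its largest step, downwards, in the first 30 min.

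**Figure D2:**
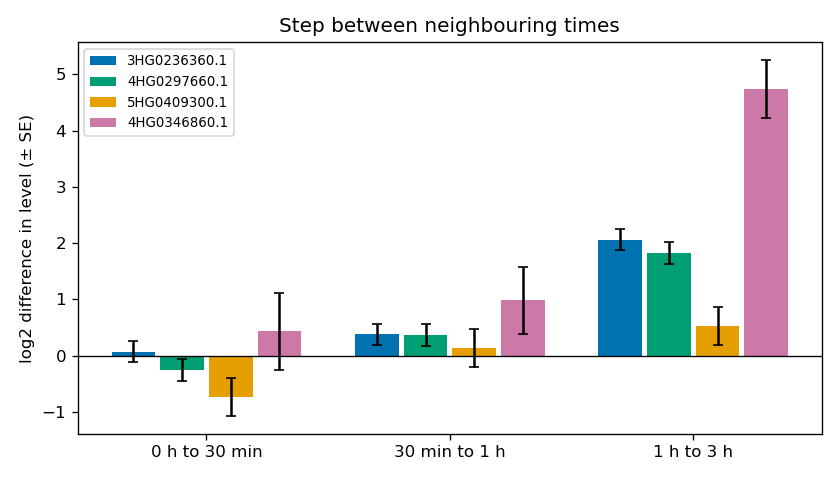
Bars show the log2 difference in level between neighbouring times for each of the 4 genes, with SE from the fit of all 12 libraries. The step from 1 h to 3 h is 2.06 for the 3H carrier, 1.82 for the 4H carrier and 4.74 for the canalization gene, and the 5H carrier has its lowest bar, -0.73, from 0 h to 30 min.

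Over the 12 libraries, the log2 levels of the 3H carrier, the 4H carrier and the canalization gene went together, with Pearson correlations of 0.94 to 0.95 and Spearman correlations of 0.64 to 0.71. The 5H carrier had Pearson correlations of 0.18 to 0.31 with the other 3. Within times, once the mean of each time was taken out, the correlations between the 4 genes lay between -0.45 and 0.36, and among the 3 genes that were high at 3 h they were at most 0.01. These values share libraries and depth and are descriptive.

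Per kb of coding length, the 4H carrier had the highest level of the 4 genes at every time, with means of 13.9, 11.6, 14.9 and 52.7 CPM per kb from 0 h to 3 h. The 5H carrier came next at 0 h, with 9.49, and then the 3H carrier, with 2.87 CPM per kb, and none of these libraries overlapped between genes. At 3 h the 3H carrier reached 16.3 CPM per kb, the 5H carrier 9.04 and the canalization gene 9.41. There the libraries of the 5H carrier ran from 5.47 to 14.9 CPM per kb, over the whole range of the canalization gene and into that of the 3H carrier, so the 5H carrier was not ordered against either beyond its spread. The 3H carrier, from 14.8 to 17.5 CPM per kb, lay above the canalization gene, from 8.73 to 10.2, without overlap.

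Among the 31 genes described as auxin efflux carriers, 9 of them with no read, the 4H carrier had rank 5 by mean level per kb at 0 h and rank 3 at 3 h. Some of the 31, such as 3HG0273270.1, have homologs described as PIN-LIKES. Between these times the 4H carrier passed that gene and 3HG0247500.1 by mean level, and neither of the 2 is described as a carrier component. At 3 h the 4H carrier was at 52.7 ± 10.3 CPM per kb and 3HG0247500.1 at 45.3 ± 12.3, so these were not ordered beyond their spread. The share of the 4H carrier in the summed CPM per kb of the 31 was 7.73 ± 2.57% at 0 h and 13.1 ± 0.599% at 3 h. The share of the 3H carrier was 1.61 ± 0.521% and 4.20 ± 1.25%, and its rank went from 9 to 6. The share of the 5H carrier was 5.13 ± 0.512% at 0 h and 2.19 ± 0.982% at 3 h, with no overlap between these libraries. The summed level itself was 186 ± 37.1 CPM per kb at 0 h and 405 ± 80.4 at 3 h, so a carrier with the same level at both times took a smaller share.

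**Figure D3:**
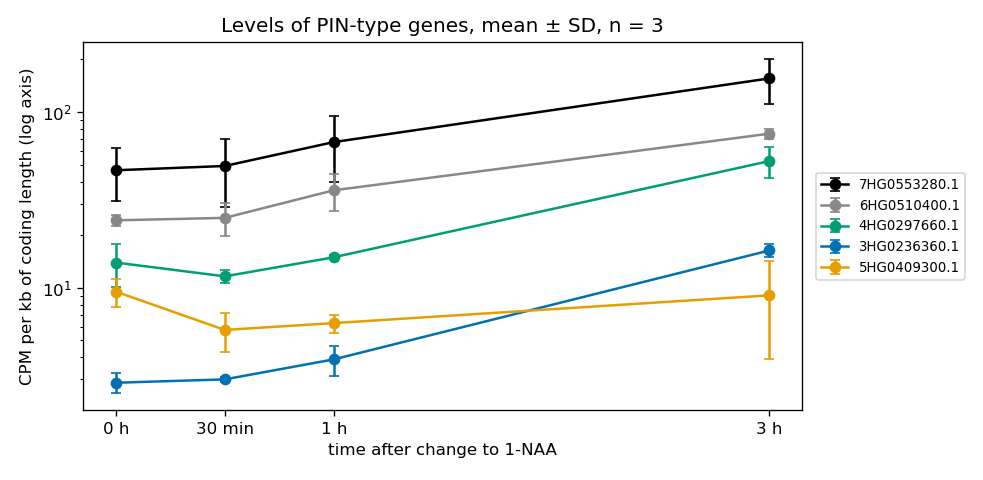
Mean CPM per kb of coding length, with SD over 3 libraries and on a log axis, for the 3 carriers described here and for 7HG0553280.1 and 6HG0510400.1, the efflux carrier genes with the highest and second highest level at 3 h. The 4H carrier stays below both at every time and like them is highest at 3 h, and the 3H carrier crosses the 5H carrier between 1 h and 3 h.

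The other genes of auxin transport were taken by words in their deposited descriptions, 89 in all, of which 66 had reads and 52 were tested. At 30 min edgeR called 0 of the 52, and 0 had an unadjusted p under 0.05, with 0 called by DESeq2 too. At 1 h it called 0, with 3 higher at an unadjusted p under 0.05, which 5.75% of all tested genes passed in either direction. DESeq2 called 1 there, and 0.527% of all genes that it tested. At 3 h edgeR called 9, all higher (17.3%, against 1.68% of all tested genes). In all 9 the 3 libraries of 3 h lay above those of 0 h, as in 6.66% of all tested genes. The 9 were called on these same libraries, so nothing is read from that. The median log2 difference of the 52 genes was 0.09, against -0.00 for all tested genes. The count of 9 fell to 4 without replicate 1 of 0 h or replicate 3 of 3 h, and to 5 without replicate 2 or 3 of 0 h or replicate 2 of 3 h.

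Among the other efflux carriers, 28 listed and 12 tested, 4 were called higher at 3 h (33.3%, against 1.68% of all tested genes). Of the 12, 7 had a log2 difference above 0, and the median of the 12 was 0.14. The gene 6HG0510400.1 rose from 42.8 ± 3.09 to 133 ± 9.15 CPM (log2 1.64 ± 0.187, edgeR adjusted p = 0.000543). The gene 7HG0553280.1 had the highest level of the list, 80.0 CPM per kb over the 12 libraries. It rose from 82.6 ± 27.8 to 277 ± 79.4 CPM (log2 1.74 ± 0.395, edgeR adjusted p = 0.0408), a call that held in 4 of 12 fits with 1 library left out. With the replicate number as a block, its log2 difference was 1.77 ± 0.176 (edgeR adjusted p = 0.000118). That setting called 5.09% of all tested genes at 3 h. These 2 genes and the 4H carrier all had their highest mean at 3 h.

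The remaining efflux carriers that were called rose from low levels. The gene 3HG0228010.1, whose homologs are described as component 3 in Arabidopsis and 3a in rice, rose from 0.792 ± 0.378 to 3.23 ± 1.12 CPM (log2 2.04 ± 0.395, edgeR adjusted p = 0.0173), with the call held in 9 of 12 fits with 1 library left out. The gene 5HG0418820.1 is closest to Arabidopsis PIN-LIKES 7, of a family that resembles PIN proteins and lies at the endoplasmic reticulum there. It rose from 1.52 ± 1.17 to 10.1 ± 5.22 CPM (log2 2.70 ± 0.602, edgeR adjusted p = 0.0375), with the call held in 5 of 12 fits with 1 library left out. With the replicate number as a block, edgeR gave 2.02 ± 0.406 (adjusted p = 0.0132) for 3HG0228010.1 and 2.81 ± 0.332 (adjusted p = 0.000411) for 5HG0418820.1. Component 8 is also the first Arabidopsis homolog of 7HG0609440.1, which had no read, and of 3HG0245790.1. The latter's log2 difference at 3 h was -0.68 ± 0.439 (edgeR adjusted p = 0.784). Both were picked out for this homolog after their values had been seen.

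Of the 9 other canalization genes, 8 were tested and 4 were called higher at 3 h (50.0%, against 1.68% of all tested genes). Of the 8, 7 had a log2 difference above 0, and the median of the 8 was 1.21. The gene 1HG0046110.1, with the same first Arabidopsis homolog as the canalization gene above, rose from 5.31 ± 1.00 to 44.2 ± 5.07 CPM (log2 3.06 ± 0.204, edgeR adjusted p = 1.49e-05). The gene 3HG0206890.1 rose from 2.05 ± 0.209 to 7.93 ± 1.22 CPM (log2 1.96 ± 0.223, edgeR adjusted p = 0.000543). The gene 6HG0498130.1 rose from 1.89 ± 0.900 to 13.0 ± 8.02 CPM (log2 2.75 ± 0.624, edgeR adjusted p = 0.0408), with replicate 1 at 3.73 CPM against 18.1 and 17.1 in the other 2 libraries of 3 h. That last call held in 4 of 12 fits with 1 library left out, the first 2 in all 12. With the replicate number as a block, the log2 difference of 6HG0498130.1 was 2.68 ± 0.334 (edgeR adjusted p = 0.000602).

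The remaining one, 4HG0346890.1, is the nearest relative on the chromosome: it lies 9654 bases from the canalization gene described here, on the same strand, with 2 genes between them, and has the same first Arabidopsis homolog. Its counts were 46, 39 and 58 at 0 h and 356, 257 and 281 at 3 h, and its level rose from 2.03 ± 0.811 to 12.8 ± 3.16 CPM (log2 2.68 ± 0.376, edgeR adjusted p = 0.00219). The pair stood 1.67 and 0.132 CPM per kb at 0 h and 10.5 and 9.41 CPM per kb at 3 h, far apart at first and close at the end. Whether the 2 genes share reads cannot be told from counts per gene, since the handling of reads with several matches is not given in the sources used here, and the values of both are uncertain to that extent.

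The canalization gene held 0.169 ± 0.0298% of the summed CPM per kb of the 10 canalization genes at 0 h and 5.92 ± 1.18% at 3 h, while the sum went from 78.6 ± 7.28 to 161 ± 18.6 CPM per kb. The highest gene of that list over the 12 libraries was 5HG0359790.1, at 30.9 CPM per kb, with a log2 difference of 0.45 ± 0.140 at 3 h (edgeR adjusted p = 0.164), which DESeq2 called. The canalization gene 2HG0147750.1 went the other way, from 14.8 ± 1.52 CPM at 0 h to 9.43 ± 2.02 at 3 h. Its log2 difference was -0.65 ± 0.194 (edgeR adjusted p = 0.145), and DESeq2 called it lower.

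**Figure D4:**
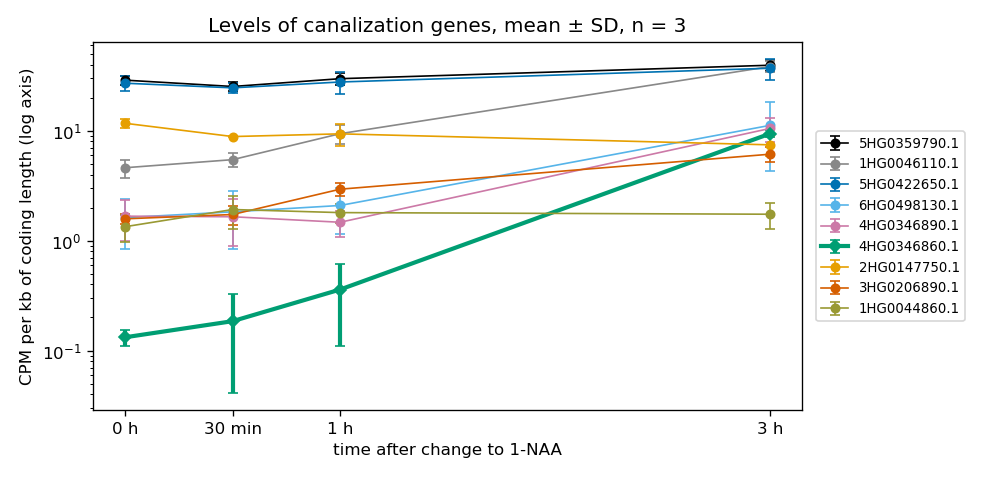
Mean CPM per kb of coding length, with SD over 3 libraries and on a log axis, for the canalization gene described here (4HG0346860.1, diamonds and thick line) and the 8 other tested genes of that description. It starts lowest, at 0.132 CPM per kb, and at 3 h reaches 9.41, close to its neighbour 4HG0346890.1 at 10.5.

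Influx carriers of the AUX1/LAX type, which bring auxin into cells, were not called at 3 h: 0 of 5, with 2 higher and 1 lower at an unadjusted p under 0.05, which 10.4% of all tested genes passed. The gene with the highest level, 3HG0251160.1 at 133 CPM per kb, was at 153 ± 25.2 CPM at 0 h and 300 ± 27.6 CPM at 3 h (log2 0.97 ± 0.239, edgeR adjusted p = 0.0614). With the replicate number as a block edgeR called it (log2 0.99 ± 0.156, adjusted p = 0.00309) and also 1HG0013380.1 (log2 1.45 ± 0.175, adjusted p = 0.000461), which without the block stood at 1.48 ± 0.399 (adjusted p = 0.0929). DESeq2 called both.

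Transporters of the ABCB type, ATP-driven carriers of which some move auxin, had 1 call among 21 tested (4.76%, against 1.68% of all tested genes called higher). The gene 3HG0237280.1 rose from 7.22 ± 0.502 to 13.3 ± 1.03 CPM (log2 0.88 ± 0.184, edgeR adjusted p = 0.0269), and this call held in 6 of 12 fits with 1 library left out. With the replicate number as a block its log2 difference was 0.89 ± 0.153 (edgeR adjusted p = 0.00530). The highest level among the genes with this description, 42.9 CPM per kb, was that of 5HG0390330.1, which stood at a log2 difference of 0.02 ± 0.170. Its coding length is only 450 bases and its listed Arabidopsis homolog is an uncharacterized protein, so its name as a transporter is doubtful. Of 6 tested genes named for the transport cofactors BIG and GNOM, edgeR called 0 at 3 h and DESeq2 called 0. Among them 1 was higher at an unadjusted p under 0.05, which 10.4% of all tested genes passed in either direction. Their highest gene, 4HG0342180.1, was at 33.8 CPM per kb and a log2 difference of 0.02 ± 0.169. Over the 4 times, edgeR's F-test called 6 of the 52 genes (11.5%, against 2.30% of all tested genes). A fit blocked by replicate number called 11 of the 52, but its share of all tested genes was also higher, at 5.80%. The 6 were the efflux carriers 3HG0228010.1 and 6HG0510400.1 and the 4 canalization genes called at 3 h.

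**Figure D5:**
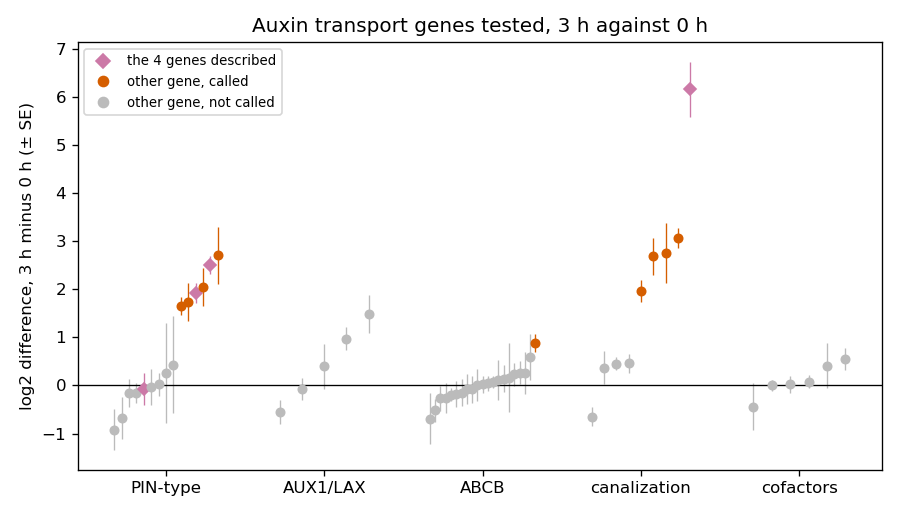
Each point is the log2 difference between 3 h and 0 h of a tested auxin transport gene, with SE, by kind of gene; diamonds are the 4 genes described here and orange points are other genes called by edgeR. The canalization gene stands highest, at 6.15, and the 5H carrier lies at -0.07 among the efflux carriers that were not called.

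The genes with the highest likeness to each of the 4 were sought among 21511 described and tested genes with a mean of at least 1 CPM, by Pearson correlation of log2 CPM over the 12 libraries. For the 3H carrier they were an auxin-responsive Aux/IAA gene (5HG0360110.1), a lysine/histidine transporter (2HG0155730.1) and a PRE5-like transcription factor (4HG0336070.1), at 0.98 each. These rank 12, 19 and 8 once the mean of each replicate number is taken out, and 101, 4 and 25 by Spearman correlation, so many genes were about as like it. The Aux/IAA gene, of a family of auxin response repressors, had a log2 difference of 0.98 ± 0.0975 at 3 h, smaller than that of the 3H carrier at 2.51. For the 4H carrier they were a glutaredoxin (2HG0134960.1, 0.99), an expansin of the kind that loosens cell walls (5HG0437890.1, 0.99) and an ACT domain gene (7HG0583980.1, 0.98). By Spearman correlation these rank 1, 3 and 3, and with replicate means out 2, 6 and 7. The glutaredoxin was at 4.72 ± 1.46 CPM at 0 h and 47.6 ± 11.1 at 3 h.

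For the canalization gene the nearest patterns were those of a gene for an enzyme that activates cytokinins (4HG0339680.1, 0.99), a kinase (5HG0438870.1, 0.99) and an oxidative stress 3 gene (1HG0062060.1, 0.98). With replicate means out they rank 2, 1 and 11, and by Spearman correlation 4, 19 and 24. The cytokinin gene was at 2.52 ± 0.860 CPM at 0 h and 98.7 ± 23.7 at 3 h. For the 5H carrier the nearest were an RNA helicase (6HG0518020.1, 0.91), a PEPR2-like receptor kinase (2HG0089350.1, 0.82) and a gene for an interactor of ROP proteins (3HG0253340.1, 0.81), which rank 3, 13 and 11 with replicate means out and 1, 42 and 51 by Spearman correlation.

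Some marker lists moved with the 3 h samples in which the 3H carrier, the 4H carrier and the canalization gene were high. The summed level of the 35 chlorophyll a-b binding genes, 33 of them with reads, was 2563 to 2933 CPM at 3 h, below all libraries of 0 h and of the times between. That of 6 phloem protein genes, 4 of them with reads, was 29.6 to 32.3 CPM at 0 h and 36.8 to 47.6 at 3 h. The part of either in the 3 h levels was not tested. The other lists overlapped between 0 h and 3 h: 13 KNOX genes of the meristem (248 to 277 and 198 to 275 CPM), 40 genes listed for xylem, laccases among them (160 to 238 and 152 to 210), 16 root hair genes (95.8 to 120 and 105 to 119) and 30 grain storage genes (379 to 463 and 278 to 807). Green tissue and KNOX genes, as a shoot base should hold, were thus present in every library. Without the 3 libraries with a low share of assigned reads, 6 of the other transport genes were called at 3 h.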

How the data were processed

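The authors deposited raw counts of reads per gene for 63658 genes in 12 libraries of poly(A) RNA, made with a directional kit and read in pairs of 150 bases, per the labels. Tools listed in the submitters' processing notes are Subread 1.5.2, HISAT2 2.0.5, bcl2fastq and SAMtools. Which genome build was used, and how counting treated strand and reads with several matches, is not given in the sources used here. Coordinates were taken as deposited. Some homologs are not reported here. A row of total reads in the authors' deposited workbook was used only for the share assigned to genes. Gene lengths were multiples of 3 in 98.9% of genes and are called coding lengths.

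Genes were kept by filterByExpr (minimum count 10, minimum total 15), 24920 in all, while 26328 lacked any read. Scaling was by TMM, and the fit was made in edgeR 4.0.16 with limma 3.58.1 in R 4.3.3, in 1 model of the 4 times with 8 residual degrees of freedom. Genes were called at a Benjamini-Hochberg adjusted p under 0.05 by the quasi-likelihood test. Log2 CPM used a prior count of 2. DESeq2 1.42.0 was an alternative, and the plots used numpy 2.4.6, matplotlib 3.10.9 and Python 3.11.15. The procedure was also run on simulated data. The p-values measure differences between pools of crowns of one experiment.

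The 4 genes, the gene lists and the tests were chosen with earlier results of these data known. Lists go by words in descriptions, and matches to violaxanthin, AlaX and immunoglobulin genes were dropped on reading them. The word for KNOX genes was respelled after the first spelling had matched no description and after other marker values had been seen. Words for PIN-LIKES genes, PIN kinases and NPY/MAB4 genes matched no description. Some genes described as efflux carriers have PIN-LIKES homologs and stayed in that list. The named genes are the 4, every other transport gene called in a comparison with 0 h or over the 4 times, the gene of the highest mean CPM per kb in each sub-list, and the 3 genes most like each of the 4 in pattern. The genes 3HG0245790.1, 7HG0609440.1, 1HG0013380.1, 3HG0247500.1, 3HG0273270.1 and 2HG0147750.1 were named after their values had been seen.

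To check whether equal replicate numbers pair the libraries, residuals were correlated between times. The correlation was 0.247 to 0.648 in the 3 pairs of 3 h and 0 h, 0.486 to 0.712 in those of 30 min and 0 h, and 0.0752 to 0.550 in those of 1 h and 0 h. Between libraries of different numbers at different times it was -0.660 to 0.306. A correlation over 0.1 was found in 9 of 36 of those pairs, against 17 of 18 pairs of equal number. The labels name no shared litter or day, so the pairing comes from the data. Replicates were not duplicates (chi-square per degree of freedom 15.9 to 87.3).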

Additional observations from a re-analysis of the deposited data

How the results depend on the processing

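The settings tried were RLE size factors, no filter, the replicate number as a block, DESeq2, the 6 libraries of the 2 times compared, the 3 libraries with a low share of assigned reads left out, a prior count of 0.5, and each library left out in turn. At 3 h the fitted log2 difference from 0 h ran from 2.44 to 2.61 for the 3H carrier, 1.77 to 2.17 for the 4H carrier and 6.05 to 6.25 for the canalization gene. That of the 5H carrier ran from -0.64 to 0.19 with 1 library left out, the lowest without replicate 2 of 3 h. At 1 h the canalization gene ran from 0.73 to 1.72 with 1 library left out. Small differences changed sign: the 4H carrier at 1 h was -0.05 without replicate 3 of 0 h, the canalization gene at 30 min was -0.14 without replicate 1 of 30 min, and the 3H carrier at 30 min was -0.00 without replicate 2 of 0 h. The canalization gene was filtered out of the fits of 2 times at 30 min and at 1 h. The prior count bears only on mean log2 CPM and is not in these ranges. By that measure the canalization gene differed from 0 h at 3 h by 5.58 with a prior count of 2 and 5.99 with 0.5.

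The count of other transport genes called at 3 h, 9, was 5 with only the 6 libraries compared, 6 without the low-share libraries, 10 with no filter, 11 with the replicate block, 13 by DESeq2 (12 higher, 1 lower) and 4 to 9 with 1 library left out. The count over the 4 times, 6, was 10 with no filter, 11 with the replicate block, 12 by DESeq2 and 4 to 10 with 1 library left out. Of all genes tested, 2.48% were called at 3 h, against 1.58% with only the 6 libraries compared, 2.19% without the low-share libraries, 1.70% with no filter, 5.09% with the replicate block, 4.47% by DESeq2 and 1.47 to 2.47% with 1 library left out. Over the 4 times these shares were 2.30%, and 1.76% with no filter, 5.80% with the replicate block and 6.38% by DESeq2. At 1 h DESeq2 called 1 gene, 1HG0046110.1, and edgeR 0. The cause of these changes was not tested, nor was the part of the fewer degrees of freedom that fewer libraries leave. The replicate block added 2 influx carriers at 3 h and changed no other call among the 52 genes there. Depth limits the canalization gene before 3 h, where a library held 1 to 17 counts.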

Other observations

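Of the 16 genes that lie next to the 4 genes, 2 on each side, 7 were tested and 3 had no read. Their log2 differences between 3 h and 0 h ran from -0.11 to 1.35, with edgeR adjusted p from 0.137 to 0.999. The 5H carrier lies 313416 and 496967 bases from 2 other genes described as efflux carriers, 5HG0409450.1 and 5HG0409460.1, which had no read in any library.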
